A study of Mus musculus with 8 samples.

Results

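DNA methylation of autosomal CpG islands was compared between Smchd1 matΔ and Smchd1 wt cells on day 2 of differentiation towards neuromesodermal progenitors (NMPs), before the Wnt pathway was activated. Islands were included when they lay on an autosome and had a methylation value in all 8 libraries of the series, which kept 7454 of the 13213 autosomal islands and of the 13840 islands listed. The assay was reduced representation bisulfite sequencing (RRBS): genomic DNA is cut at CCGG sites, so that CpG-rich sequence is read, and bisulfite converts unmethylated cytosines. The cells were male primary mouse embryonic stem cell (mESC) lines, each derived from a separate blastocyst of a C57BL/6 mother and a Castaneus father. The Smchd1 wt lines carried the genotype Smchd1 fl/+. The Smchd1 matΔ lines were Smchd1 del/+, and came from oocytes in which Zp3-Cre had deleted Smchd1, so they lacked the oocyte's SMCHD1 and also held 1 deleted allele. These 2 features cannot be told apart in the comparison. Each genotype had 2 lines, and the same 4 lines were sampled again on day 2.5, after 12 h with the Wnt agonist CHIR99021. All lines grew as mESCs in 2i, which also contains CHIR99021, and LIF, and were moved to N2B27 medium with bFGF to differentiate. Only DNA methylation was measured in these libraries, so neither the labelled cell state nor the deletion could be checked against expression. The study asked whether maternal SMCHD1 affects DNA methylation at the Hox clusters.

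SMCHD1 is a non-canonical SMC protein that takes part in X inactivation, genomic imprinting and the silencing of clustered genes such as the Hox and protocadherin genes. CpG islands are stretches of CpG-rich DNA that cover most promoters and are usually kept free of methylation, even where the gene is silent. Islands inside genes or at imprinted control regions, and the promoters of germline genes, are among those that do carry methylation. In embryos methylation is laid down by DNMT3A and DNMT3B as cells leave the naive state, whereas 2i medium keeps it low.

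The islands below are those on which the description turns, shown to give part of their reference sequence. Which of these bases were sequenced in each library is not known. Each line gives 120 bases of the GRCm38 reference genome, plus strand, 5′ to 3′, each starting at a site of the form CCGG, with the window chosen for the most CpGs outside annotated UTRs. Capitals mark CpG dinucleotides, and a cut site therefore reads cCGg. The first set was higher in both Smchd1 matΔ lines.
Intergenic island near Gm11795, chr4:7733767-7733886: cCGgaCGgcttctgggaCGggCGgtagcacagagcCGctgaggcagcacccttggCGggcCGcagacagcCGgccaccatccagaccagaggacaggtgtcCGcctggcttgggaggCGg
Peg13, chr15:72809699-72809818: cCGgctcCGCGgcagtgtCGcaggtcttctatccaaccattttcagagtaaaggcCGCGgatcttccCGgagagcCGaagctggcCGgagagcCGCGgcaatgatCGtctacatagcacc
Cacna1b, chr2:24679162-24679281: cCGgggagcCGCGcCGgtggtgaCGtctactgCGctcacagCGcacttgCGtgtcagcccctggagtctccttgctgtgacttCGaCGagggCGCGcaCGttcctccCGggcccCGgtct
Wnt7b, chr15:85576326-85576445: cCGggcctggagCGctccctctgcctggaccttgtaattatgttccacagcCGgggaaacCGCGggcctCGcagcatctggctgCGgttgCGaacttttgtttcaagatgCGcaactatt
Cyp26c1, chr19:37693026-37693145: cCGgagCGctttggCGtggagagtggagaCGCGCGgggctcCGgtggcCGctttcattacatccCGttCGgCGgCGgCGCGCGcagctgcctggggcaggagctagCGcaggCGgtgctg
Igf2r intron at the Airn start, chr17:12741748-12741867: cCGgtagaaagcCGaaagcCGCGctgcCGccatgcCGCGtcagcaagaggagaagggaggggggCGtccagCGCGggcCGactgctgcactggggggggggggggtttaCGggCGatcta

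The second set was lower in both Smchd1 matΔ lines. The window near Cdkn1c holds 21 CpGs, the most of the 10 windows, and the Wnt7b window holds 9, the fewest.
Intergenic island near Gm27901 and Cdkn1c, chr7:143445417-143445536: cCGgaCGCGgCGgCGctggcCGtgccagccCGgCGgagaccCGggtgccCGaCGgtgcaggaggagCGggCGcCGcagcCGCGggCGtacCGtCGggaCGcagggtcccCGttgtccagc
Intergenic island near Gm9509, chr15:37135593-37135712: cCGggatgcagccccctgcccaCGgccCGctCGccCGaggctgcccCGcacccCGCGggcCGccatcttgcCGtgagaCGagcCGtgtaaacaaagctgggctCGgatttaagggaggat
Lca5l, chr16:96159516-96159635: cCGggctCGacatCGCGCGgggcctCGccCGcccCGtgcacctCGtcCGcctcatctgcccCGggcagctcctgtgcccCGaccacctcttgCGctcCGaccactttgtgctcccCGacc
Nkx2-5, chr17:26839077-26839196: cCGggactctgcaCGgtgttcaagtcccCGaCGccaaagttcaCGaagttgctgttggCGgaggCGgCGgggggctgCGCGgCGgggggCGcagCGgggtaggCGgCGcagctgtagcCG

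Methylation was low over nearly all autosomal islands in both genotypes. The mean over the 7454 islands was 1.44% in each Smchd1 wt line, 1.59% in Smchd1 matΔ line 1 and 1.46% in Smchd1 matΔ line 2. Both Smchd1 matΔ means were therefore above both Smchd1 wt means, but line 1 stood apart from the other 3. The group means were 1.436% ± 0.000309 (SD, n = 2) and 1.528% ± 0.0939 (SD, n = 2), a difference of 0.0921 points, for which the two-sided exact permutation test gave p = 0.333, the smallest that 2 lines against 2 can give. Without Smchd1 matΔ line 1 the difference was 0.0257 points. The median island did not move with genotype: the median difference was 0, with 3366 islands of higher mean in Smchd1 matΔ, 3303 of lower mean and 785 equal. The means differed by less than 1 point at 84.8% of islands. A total of 757 islands were listed at 0 in all 4 day 2 libraries.

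The excess in Smchd1 matΔ line 1 was found at islands that already carried methylation. Islands were sorted into classes by their mean in the Smchd1 wt libraries of day 2.5, which are no part of the day 2 comparison. Among the 6078 islands under 1%, the Smchd1 matΔ mean differed from the Smchd1 wt mean by 0.010 points, and among the 1088 islands of 1 to 5% by 0.077 points. Among the 200 islands of 5 to 20% the difference was 1.08 points, among the 49 of 20 to 50% it was 4.12 points, and among the 39 of 50% and over it was 3.13 points. Without Smchd1 matΔ line 1 the difference among the islands of 1 to 5% was 0.011 points, and these last 3 differences were 0.188, 0.912 and 0.018 points. Much of the difference in each of these classes was thus carried by that line. The plot of day 2 means by level class shows the same per line.

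**Figure D1:**
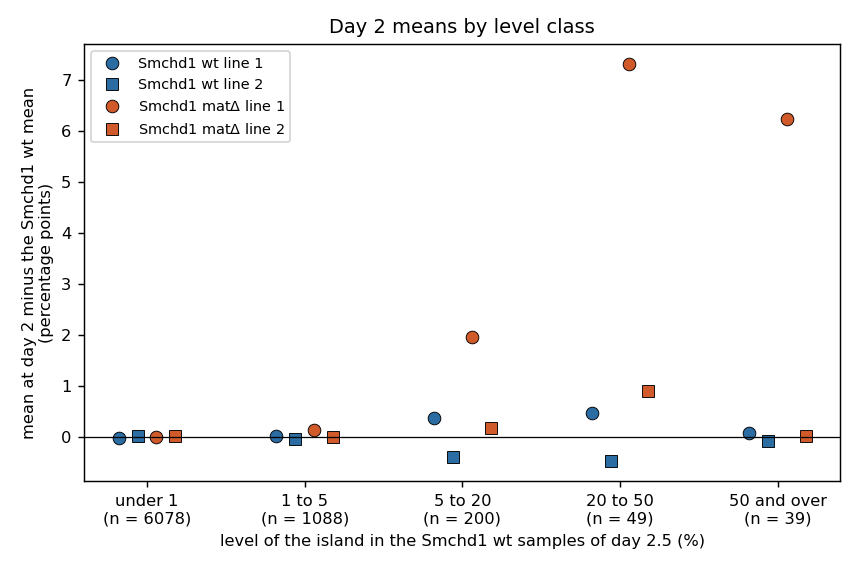
Mean methylation of each line at day 2, as percentage points above the Smchd1 wt mean, for islands in 5 classes of level set by the Smchd1 wt samples of day 2.5; each point is 1 line. Smchd1 matΔ line 1 lies above the other 3 lines in every class of 1% and over. In these classes Smchd1 matΔ line 2 exceeds the Smchd1 wt mean by 0.011, 0.188, 0.912 and 0.018 points.

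No autosomal island differed between the genotypes at day 2 after adjustment. With limma, fitted across all 7196 islands whose values varied and adjusted by the Benjamini-Hochberg method, 0 of 7190 autosomal islands (0%) passed an adjusted p of 0.05, and the smallest adjusted p was 0.145. At an unadjusted p under 0.05 there were 152 islands higher in Smchd1 matΔ (2.11%) and 151 lower (2.1%). These shares are below the 5% that the threshold itself implies over both directions, and they were nearly equal in the 2 directions. None of the islands named below is therefore a called difference, and their values describe these 4 lines.

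The genotypes can also be read by their overlap. An island is called separated here when both Smchd1 matΔ lines were above, or both below, both Smchd1 wt lines, and the gap is the number of percentage points between the nearest lines of the 2 genotypes. At day 2, 914 islands were separated with Smchd1 matΔ higher (12.3%) and 870 with Smchd1 matΔ lower (11.7%). Most of these gaps were small, with a median of 0.257 points among the higher and 0.227 points among the lower islands, and 84.2% and 88.2% of them were under 1 point. In 251 of the higher islands both Smchd1 wt lines were listed at 0, and in 212 of the lower islands both Smchd1 matΔ lines were. Gaps of at least 1 point were found at 144 higher and 103 lower islands, of at least 2 points at 58 and 28, of at least 5 points at 16 (0.215%) and 5 (0.0671%), and of at least 10 points at 3 and 2. Higher islands were the more numerous at each of these gaps. With the libraries scaled to the same mean over islands, however, 846 islands were separated higher and 966 lower, and those at least 5 points apart numbered 11 higher and 9 lower. For scale, the 2 Smchd1 wt lines differed from each other by at least 5 points at 199 islands and the 2 Smchd1 matΔ lines did so at 219, whereas the genotype means differed by at least 5 points at 117. These are unlike measures: the counts within a genotype compare single libraries, and the count between genotypes compares means of 2 lines, which vary less.

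**Figure D2:**
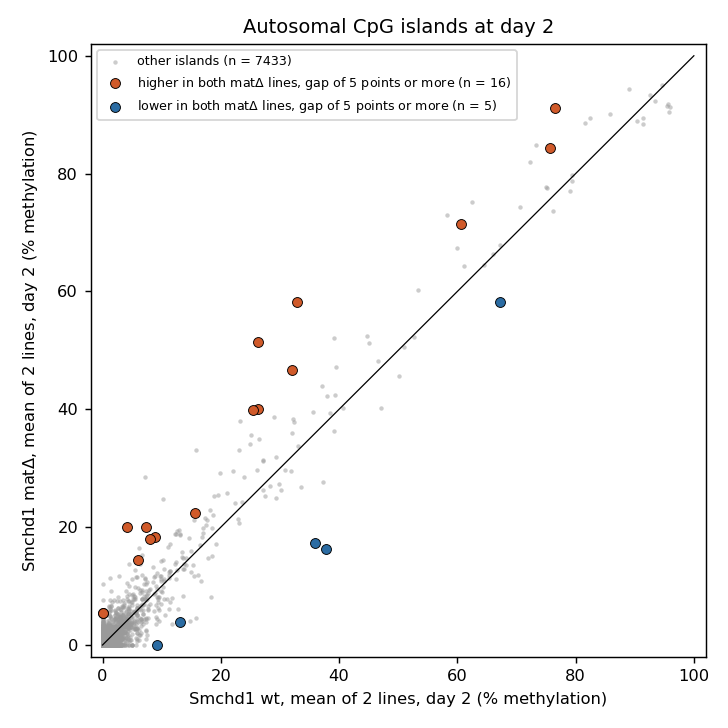
Mean methylation at day 2 of each autosomal island in Smchd1 wt (x axis, %) and Smchd1 matΔ (y axis, %), each the mean of 2 lines; the line marks equal levels. The 16 islands higher by a gap of at least 5 points and the 5 lower are coloured, and the other 7433 lie mostly near 0 or along the line of equality.

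The 3 widest gaps with higher methylation in Smchd1 matΔ were at Cacna1b, at Peg13 and at an intergenic island on chromosome 4. Cacna1b encodes the pore-forming subunit of the neuronal N-type calcium channel, and the island (chr2:24678984-24679525) overlaps a coding exon. Its methylation was 22.5 and 30% in Smchd1 wt lines 1 and 2, and 55.3 and 47.7% in Smchd1 matΔ lines 1 and 2, a gap of 17.7 points. The limma difference was 25.2 ± 16.8 points (SE, n = 2 lines per group, adjusted p = 0.968). The 4 lines did not overlap, but the standard error, which is also set by islands of like level and by the spread at day 2.5, was wide.

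Peg13 is a paternally expressed non-coding RNA of an imprinted cluster on chromosome 15, and its island (chr15:72809538-72810123) overlaps its exon. Methylation was 2.38 and 5.88% in Smchd1 wt and 18.2 and 21.9% in Smchd1 matΔ, so that both Smchd1 matΔ lines stood 12.3 points or more above Smchd1 wt. The difference was 15.9 ± 3.45 points (limma, SE, n = 2 lines per group, adjusted p = 0.646). At day 2.5 it read 0 and 1.39% in Smchd1 wt and 12.2 and 1.96% in Smchd1 matΔ, so the genotypes were still separated, with line 2 close to Smchd1 wt.

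The intergenic island chr4:7733691-7734124 has its nearest annotated start, that of the predicted gene Gm11795, 25546 bases away and its nearest protein-coding start, that of the carbonic anhydrase-related gene Car8, 504917 bases away. It was highly methylated, with 79.2 and 73.8% in Smchd1 wt and 92.3 and 89.9% in Smchd1 matΔ. Among all autosomal islands it alone was separated by at least 5 points in the same direction on both days, with 79.2 and 78.6% in Smchd1 wt and 90.9% in each Smchd1 matΔ line at day 2.5. The difference was 14.6 ± 2.01 points at day 2 (limma, SE, n = 2 lines per group, adjusted p = 0.509) and 12.04 points at day 2.5.

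Wnt7b and Cyp26c1 were also among the named higher islands, with gaps of 6.67 and 5.96 points. Olfr1257, P2ry2, Tmem151b and Yjefn3, given below, had wider gaps. Wnt7b encodes a Wnt ligand, and the island at its coding exon (chr15:85576299-85578144), which also covers an annotated Wnt7b transcript start, stood at 7.69 and 10% in Smchd1 wt and 16.7 and 20% in Smchd1 matΔ. The neighbouring Wnt7b island, 2268 bases away, overlapped between the genotypes, with 1.06 and 0% in Smchd1 wt and 0.83 and 0% in Smchd1 matΔ. Cyp26c1 encodes an enzyme that degrades retinoic acid, and its island (chr19:37692844-37693403) stood at 7.80 and 8.38% in Smchd1 wt and 21.6 and 14.3% in Smchd1 matΔ. At day 2.5 the order at Cyp26c1 was the opposite, with 16.7 and 13.3% in Smchd1 wt and 12.5 and 11.2% in Smchd1 matΔ.

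The other named higher islands were mostly in coding exons away from a start. At P2ry2, a receptor for extracellular nucleotides, methylation was 57.7 and 63.6% in Smchd1 wt and 71.4% in each Smchd1 matΔ line. At Yjefn3 it was 27.9 and 23.0% against 44.5 and 35.4%, and the neighbouring Cilp2 island, 5636 bases away, was higher too, at 18.7 and 16% against 24.0 and 19.09%. Tmem151b read 9.78 and 5% against 22.5 and 17.4%. These 3 loci share their position inside a gene. They were named for their day 2 gap, so the lack of overlap at day 2 follows from that choice.

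An intergenic island 18294 bases from the olfactory receptor gene Olfr1257 read 33.3 and 30.6% in Smchd1 wt and 51.9 and 41.6% in Smchd1 matΔ. Tnfrsf13b, a receptor of B cells for BAFF and APRIL, had 35.7 and 30% against 75.0 and 41.4%, so that the Smchd1 matΔ lines lay further from each other than the gap of 5.67 points to Smchd1 wt. Tmcc2 had 72.7 and 78.6% against 84.2 and 84.6%. Fbxl21, which encodes an F-box protein of the circadian clock, differed from these in level: it was listed at 0 in both Smchd1 wt lines and at 5.71 and 5.26% in Smchd1 matΔ, over its transcript start. The remaining 4 of the 16 islands fell outside the naming rule, and none had a gap wider than that of Fbxl21.

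The 5 islands lower in Smchd1 matΔ by at least 5 points were led by G2e3, a ubiquitin ligase gene. Its island (chr12:51347992-51348511), over the transcript start, stood at 37.5 and 38% in Smchd1 wt and at 21.2 and 11.4% in Smchd1 matΔ, a gap of 16.2 points. At day 2.5 the G2e3 values ranged from 9.21 to 35.2% in Smchd1 wt and from 7.69 to 22.6% in Smchd1 matΔ, so the genotypes overlapped there and the Smchd1 wt lines lay far apart.

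The next was an intergenic island (chr7:143445161-143446003) that lies 13308 bases from the start of Cdkn1c, the imprinted gene of the cell-cycle inhibitor p57, and 1602 bases from the predicted gene Gm27901. It read 40 and 31.8% in Smchd1 wt and 17.9 and 16.7% in Smchd1 matΔ at day 2. At day 2.5 the Smchd1 wt level was lower, 19.2% in each line, against 18.2 and 14.3% in Smchd1 matΔ, so that the genotypes were still separated but by 1.05 points. The limma difference at day 2 was -18.6 ± 7.99 points (SE, n = 2 lines per group, adjusted p = 0.968). A further listed island, 6616 bases away, overlapped between the genotypes.

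An intergenic island 36383 bases from Gm9509 (chr15:37135478-37136021) read 8.33 and 10% in Smchd1 wt and 0% in both Smchd1 matΔ lines. At Sox30, which encodes a transcription factor of spermatogenesis, methylation was 13.3 and 12.7% in Smchd1 wt and 2.22 and 5.56% in Smchd1 matΔ. In the intron of C230088H06Rik it was 66 and 68.5% against 60.3 and 56.3%. The day 2.5 lines overlapped at Sox30 and Gm9509 and not at Gm27901, while the C230088H06Rik values at day 2.5 were 62.8 and 53.9% against 53.8 and 48.7%.

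Just below a gap of 5 points, on the lower side, were Lca5l, Slc13a5 and Zfp575. Lca5l (chr16:96159094-96159734, coding exon) read 6.94 and 4.41% in Smchd1 wt and 0% in both Smchd1 matΔ lines, and at day 2.5 it read 2.38 and 1.56% against 0% in both. Slc13a5, a citrate transporter gene, read 14.3 and 9.38% against 2.27 and 5%. Zfp575, a zinc finger gene, read 17.2 and 16.1% against 10 and 11.7%. All 3 were named for their day 2 gap, so the lack of overlap at day 2 follows from that choice.

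**Figure D3:**
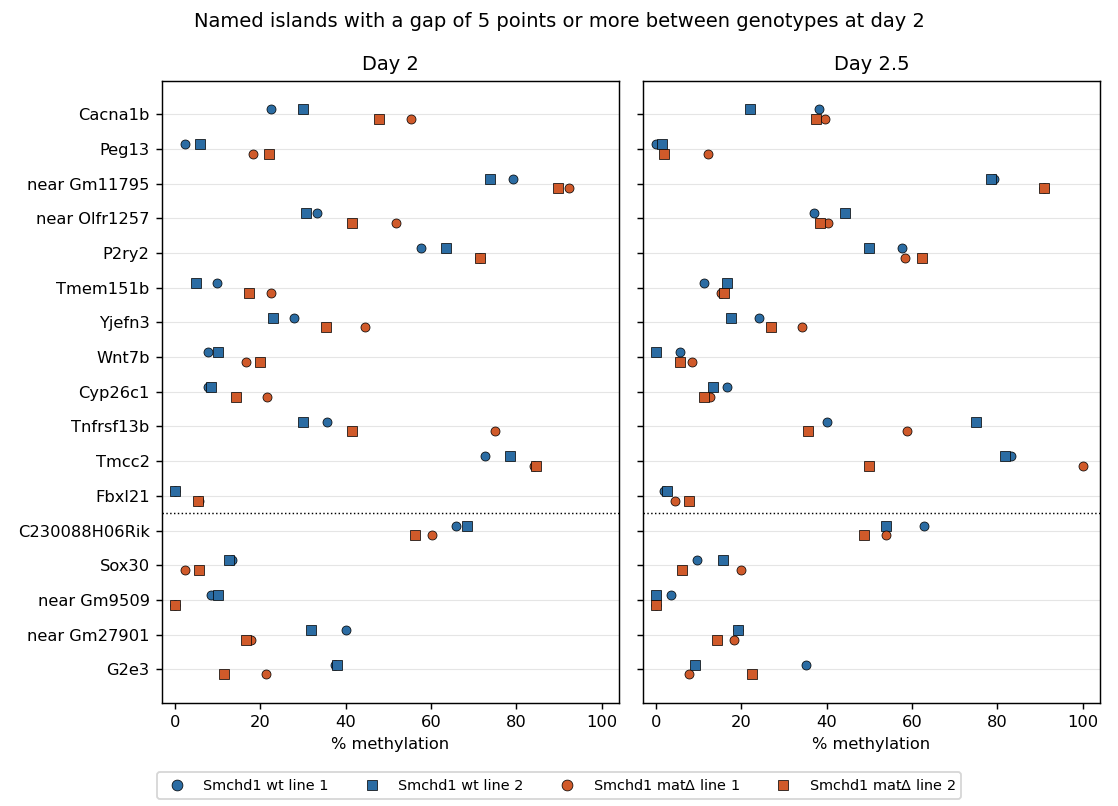
Percent methylation in each line at day 2 (left) and day 2.5 (right) of the 17 named islands whose genotypes were at least 5 points apart at day 2, 12 higher (above the dotted line) and 5 lower in Smchd1 matΔ, ordered by gap. At day 2.5 the genotypes overlap at many of these islands, and the island near Gm11795 keeps its gap.

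Of the 5 islands with the smallest p, all but the highly methylated one near Gm11795 were listed at 0 in several libraries. Ebf2, a gene of the early B cell factor family, had the smallest: its island (chr14:67235404-67236476) was listed at 0 in all 4 Smchd1 wt libraries and in both Smchd1 matΔ libraries of day 2.5, while the day 2 libraries of Smchd1 matΔ read 3.85 and 4.55%. The difference was 4.196 ± 0.382 points (limma, SE, n = 2 lines per group, adjusted p = 0.145). Rcor1, which encodes the corepressor CoREST, was at 0% in both Smchd1 wt lines while Smchd1 matΔ read 2.86 and 2.99% at day 2 and 0% in both lines at day 2.5 (adjusted p = 0.509 with limma). The other 3 islands of the 5 smallest p were those of Gm11795, Gm9509 and Lca5l.

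Large differences of means were not enough to separate the genotypes. Among overlapping islands, the largest were at Lrp1b, with 20.4 and 25.9% in Smchd1 wt and 50.5 and 25.5% in Smchd1 matΔ, at Lingo3, with 29.8 and 48.4% against 58.0 and 46.2%, and at Zbtb7a, with 70.0 and 55.0% against 91.2 and 59.1%. In each of these, Smchd1 matΔ line 1 was the highest of the 4. Of the 117 islands with a difference of means of at least 5 points, 86 were higher and 31 lower in Smchd1 matΔ, and 54 overlapped.

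The same 4 lines at day 2.5 give a second reading that played no part in choosing the day 2 islands, although it shares the lines and so is not a new set of embryos. Of the 914 islands separated with Smchd1 matΔ higher, 447 (48.9%) had a higher Smchd1 matΔ mean at day 2.5, against 43.2% of all autosomal islands. Of the 870 separated lower, 440 (50.6%) had a lower mean, against 46.4% of all. These shares are not on a like base, since islands of equal mean at day 2.5 are counted in each. They numbered 32 of the 914 and 32 of the 870, and were a larger share of all 7454 islands, of which 3221 were higher and 3457 lower. Separation in the same direction on both days held for 14% of the higher islands, against 11.4% separated higher among all islands at day 2.5, and for 16.2% of the lower islands, against 13.1%. The opposite direction was about as frequent. Of the islands separated higher at day 2, 435 had a lower mean at day 2.5 and 15.1% were separated lower, against 13.1% of all, and of those separated lower at day 2, 398 had a higher mean and 11.8% were separated higher, against 11.4% of all. Among the islands with a gap of at least 5 points at day 2, the sign was kept at 10 of 16 higher and 4 of 5 lower islands, and separation in the same direction at 6 of 16 and 2 of 5. The differences were smaller, however: the mean over the 16 was 12.6 points at day 2 and 2.34 points at day 2.5, and over the 5 it was -13.5 and -3.71 points. Because the islands were chosen for their day 2 gap, the day 2 value is not an estimate free of that choice. No interaction between genotype and day passed in limma (0 of 7190, smallest adjusted p = 0.867), and 336 islands had an unadjusted p under 0.05.

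**Figure D4:**
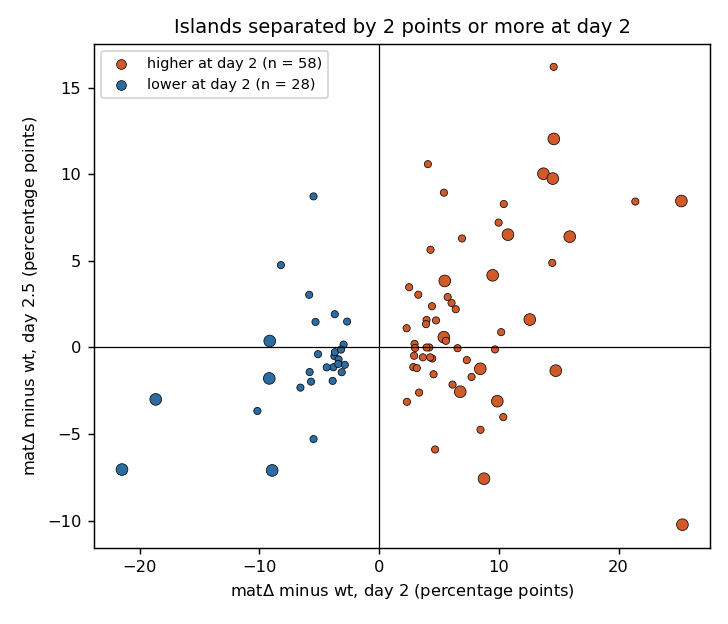
Difference between the genotype means (Smchd1 matΔ minus Smchd1 wt, percentage points) at day 2 (x axis) and day 2.5 (y axis) for the 58 higher and 28 lower islands with a day 2 gap of at least 2 points; large points have a gap of at least 5. At day 2.5, 32 of the 58 were still higher and 20 of the 28 still lower, and most points lie nearer 0 on the y axis than on the x axis.

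The islands with wide gaps differed from all islands in position and length. A gap of at least 5 points cannot arise where every line is near 0, so the choice itself favours methylated islands. A transcript start lay within 4 of the 16 higher islands (25%) and 2 of the 5 lower islands, whereas 90.3% of all autosomal islands covered one. The 16 islands were also shorter and poorer in CpG, with a median length of 549 bases, 46 CpGs and 5 CCGG sites, against 806 bases, 86 CpGs and 11 CCGG sites over all islands. The 5 lower islands had medians of 544 bases, 63 CpGs and 7 CCGG sites. Level goes with these features: among the 296 islands with a mean level of at least 5%, 41.9% covered a start, with medians of 705 bases, 64 CpGs and 8 CCGG sites. Islands with fewer CCGG sites offer fewer fragments to sequence, but the reads behind each value are not given, and their part in the result was not tested. By position, the genotype difference was 0.010 points over the 6734 islands that covered a start, 0.986 points over the 544 inside a gene without a start and 0.462 points over the 176 intergenic islands. Without Smchd1 matΔ line 1 the last 2 were 0.278 and 0.242 points. The share separated with Smchd1 matΔ higher was 16.2% inside genes and 11.9% at starts, and the share separated lower was 10.7% and 11.8%.

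Genes of known function were read from lists, in which an island belonged to a gene when a transcript of that gene started within 2 kb. The Hox list was instead the set of islands in the deposited Hox table, of which 28 of 46 had a value. No member of any list passed the adjusted limma test, and the counts below stand against 12.3% separated higher and 11.7% lower over all autosomal islands. Imprinted genes, expressed from 1 parental allele, were represented by 28 islands. The mean over these was 1.44 and 1.35% in Smchd1 wt and 2.77 and 2.35% in Smchd1 matΔ, so the genotypes did not overlap, with a difference of 1.16 points, a median of 0.372 points, and 19 islands higher, 6 lower and 3 equal. Without Smchd1 matΔ line 1 the difference was 0.953 points. Single islands were separated at 3, all higher (10.7%), and none lower. Peg13 contributed most, with a difference of 15.9 points, and the list mean was not computed without it. The intergenic island 13308 bases from the start of the imprinted gene Cdkn1c, given above, lies outside the list by the 2 kb rule. That island was separated lower, at 40 and 31.8% against 17.9 and 16.7%, a difference of -18.6 points. The list values do not include it. Zrsr1, an imprinted splicing factor gene, read 0.572 and 0% against 2.67 and 1.11%. The intronic island of Igf2r (chr17:12741441-12742489), 43 bases from the start of the antisense RNA Airn that silences Igf2r on the paternal allele, read 4 and 1.30% against 6.67 and 9.46%, and at day 2.5 it read 5.57 and 0.769% against 20.2 and 4.05%. The Kcnq1 island, at the start of a potassium channel gene in the cluster of Cdkn1c, overlapped, at 6.67 and 4.44% against 12.9 and 6.67%.

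Clustered protocadherins, the adhesion molecules that give neurons their identity, were represented by 3 islands. Pcdhgb2 read 10.3% in each Smchd1 wt line and 34.4 and 15.2% in Smchd1 matΔ, and was the separated member. Pcdhgb5 read 9.09 and 4.29% against 8.33 and 22.4%, which overlapped, and Pcdhgc3 was between 0 and 1.36% in all 4. The line that was higher differed between Pcdhgb2 and Pcdhgb5. The mean over the 3 islands was 6.48 and 5.30% in Smchd1 wt and 14.5 and 12.5% in Smchd1 matΔ.

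Islands of Wnt pathway genes were mostly near 0 at day 2, before CHIR99021 was added to the differentiation medium. Of 61 islands, 11 were separated higher (18.0%) and 6 lower (9.84%), with a median difference of 0 and a mean of 0.179 points. Beside Wnt7b, the widest gap was at Sfrp5, a secreted Wnt antagonist, with 3.62 and 3.50% in Smchd1 wt and 8.36 and 5.11% in Smchd1 matΔ. The others separated higher included the ligand genes Wnt3a (0.376 and 1.35% against 1.79 and 2.24%) and Wnt6, the target and scaffold gene Axin2 and the Wnt agonist gene Rspo1, and those separated lower included Ctnnb1, which encodes β-catenin (1.11 and 0.861% against 0.446 and 0.467%), Lef1 and Tcf7l2. All of these but Wnt7b and Sfrp5 had gaps under 1 point. An intronic Wnt3a island, 26131 bases from the start and so outside the list, was separated lower, at 3.49 and 5.40% against 1.25 and 0%, and is named after its values were seen. The receptor gene Fzd2 had one of the 3 largest differences of the list, but overlapped, at 22.7 and 15.6% against 18.2 and 15.9%.

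Hox islands were low as well, and a larger share of them was separated than of all islands. The 2 sets were not matched for level: the median level was 0.884% over the Hox islands and 0.406% over all. All islands also include 757 at 0 in all 4 day 2 libraries, which cannot separate. Of 28, 6 were higher in Smchd1 matΔ (21.4%) and 8 lower (28.6%). At an unadjusted limma p under 0.05, of the 27 that varied, 1 was higher (3.70%) and 5 were lower (18.5%). The shares over all autosomal islands at that threshold were 2.11% and 2.1%. The mean over the 28 was 1.81 and 2.12% in Smchd1 wt and 1.29 and 1.65% in Smchd1 matΔ, a difference of -0.493 points with no overlap, and the median was -0.108 points. Without Smchd1 matΔ line 1 the difference was -0.311 points. Without the 3 islands of largest difference, named next, the mean over the other 25 was -0.0296 points. The largest were at Gm53, a non-coding RNA of the HoxB cluster, at 15.7 and 9.72% against 7.33 and 5%, and at an island over the Hoxa10 start, at 2.98 and 5.15% against 0.794 and 0.571%. The third was Haglr, a non-coding RNA of the HoxD cluster, which overlapped, at 0 and 6.25% against 0% in both. At day 2.5 the mean difference over the Hox islands was -0.174 points.

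Genes that mark axial and neuromesodermal progenitors had 16 islands, of which 3 were separated higher (Mixl1, Wnt3a and Dll3, with gaps of 0.137 to 0.900 points) and none lower. The largest differences in this list were at Cdx1, a homeobox gene of posterior identity, with 0 and 8.57% in Smchd1 wt and 0.909 and 1.82% in Smchd1 matΔ, at the endoderm and node factor Foxa2, with 5.26 and 0% against 0% in both, and at Evx1, with 2.68 and 3.12% against 1.19 and 7.77%. All 3 overlapped. Each of these differences rested on 1 line. A further Evx1 island, in a coding exon 2996 bases from the Evx1 start and so outside the list, was separated lower, at 7.58 and 5.31% against 1.92 and 2.22%, and is also named after its values were seen.

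Developmental transcription factors had 142 islands, with 13 separated higher (9.15%) and 23 lower (16.2%), and a median difference of -0.00670 points. At an unadjusted limma p under 0.05, of the 136 that varied, 5 were higher (3.68%) and 7 lower (5.15%). Over all autosomal islands these shares were 2.11% and 2.1%. Nkx2-5, the cardiac homeobox gene, had islands of each kind. The island in its coding exon (chr17:26838632-26839820) read 11.1 and 10% in Smchd1 wt and 3.51 and 6.67% in Smchd1 matΔ, and it remained lower at day 2.5, at 9.80 and 14.6% against 6.67 and 7.14%. Its intronic island read 52.6 and 67.3% against 61.7 and 73.3% and overlapped. Lhx3, a LIM homeobox gene of motor neurons and pituitary, had the largest difference in the list but overlapped, at 6.67 and 25% against 9.09 and 0%.

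Pluripotency genes had 18 islands, 4 separated higher (22.2%) and 3 lower (16.7%), both shares above those of all islands. Esrrb, a nuclear receptor of the naive state, was higher on both days, with 3.15 and 2.02% in Smchd1 wt and 4.72 and 5.81% in Smchd1 matΔ at day 2, and 2.08 and 5.15% against 7.94 and 7.09% at day 2.5. Foxd3 was lower, at 4.76 and 1.39% against 0% in both. The island at Otx2, a factor of the formative state, overlapped, at 5.13 and 0% against 6.67 and 2.08%.

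Germline genes, which are methylated at their promoters in somatic cells, had 7 islands and 1 separated, higher, at Tex15. Methylation varied widely among them: Sycp1 stood between 77.9 and 81.0% and Meioc between 19.3 and 36.7% over the 4 lines, whereas Dazl stood between 1.19 and 3.92% and Smc1b between 1.47 and 9.09%. None of these 4 separated the genotypes.

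Chromatin and DNA methylation regulators had 42 islands, 2 separated higher (4.76%) and 3 lower (7.14%), all shares below those of all islands, with a median difference of -0.0407 points. The island at the Smchd1 promoter, outside the deleted exon, read 0 and 2.63% in Smchd1 wt and 0.327 and 0% in Smchd1 matΔ, so it did not differ beyond the spread between lines. The islands of Tet3, a demethylating enzyme, and of the Polycomb gene Cbx8 overlapped as well. Ribosomal protein genes, a list of housekeeping genes for comparison, had 49 islands with 6 separated higher (12.2%) and 8 lower (16.3%). Their largest differences were at Rps2, listed at 0 in both Smchd1 wt lines and at 3.33 and 0.833% in Smchd1 matΔ, and at Rps15a and Rpl3, which overlapped and where a single line stood above 1%.

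**Figure D5:**
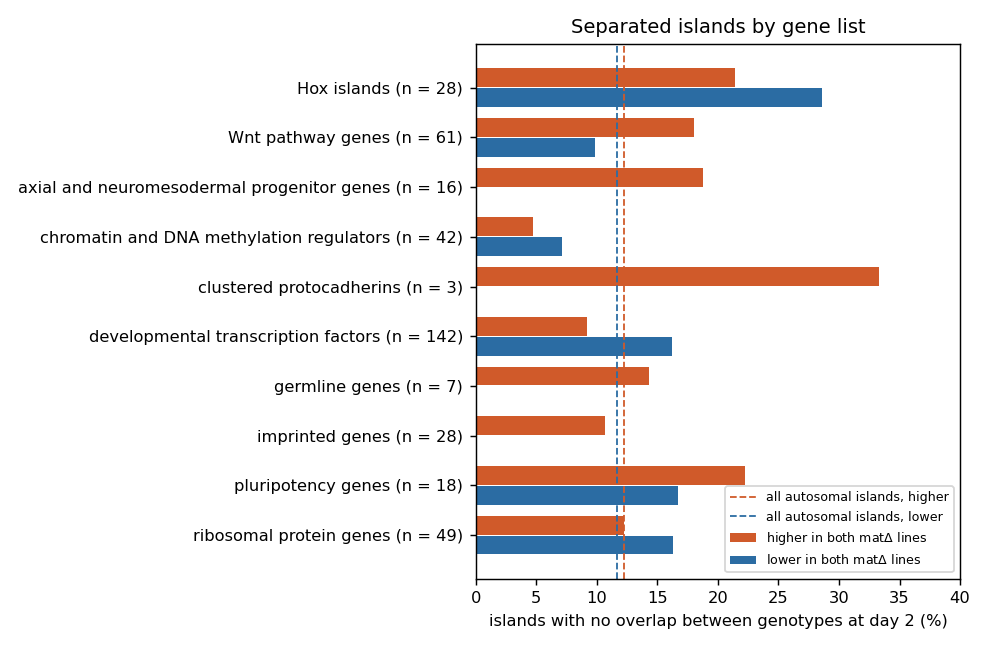
Share of the islands of each gene list (%) at which the genotypes did not overlap at day 2, with Smchd1 matΔ higher or lower; dashed lines give the shares over all autosomal islands, 12.3% and 11.7%, and n is the number of islands. Hox islands and pluripotency genes lie above both lines and chromatin regulators below both. The axial, germline, protocadherin and imprinted lists, the first 3 of them of 16 islands or fewer, have no island separated lower.

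Differences between the genotypes were small on every autosome. The mean over a chromosome's islands was higher in Smchd1 matΔ on 15 of 19 autosomes, and on 14 without Smchd1 matΔ line 1, with differences from -0.122 points on chromosome 16 to 0.225 points on chromosome 15. The lines of the 2 genotypes did not overlap on 8 chromosomes with the Smchd1 matΔ mean higher and on 1, chromosome 16, with it lower. On chromosome 16, 16 of 222 islands were separated higher (7.21%) and 37 lower (16.7%). Neighbouring islands were compared next. Of 526 pairs of islands within 10 kb, 15 had both members separated higher, 12 both lower and 15 in opposite directions. Cilp2 and Yjefn3, given above, were a pair separated higher. In 1 pair both gaps were at least 1 point, that of Rasl10a and Gas2l1, named after its values were seen. These islands lie 2857 bases apart on chromosome 11 and read 1.10 and 1.02% against 2.14 and 2.48%, and 2.73 and 3.04% against 4.38 and 4.99%.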

How the data were processed

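RRBS libraries were made from 100 ng of DNA of male mESC lines at days 2 and 2.5, with 2 Smchd1 wt and 2 Smchd1 matΔ lines, and groups were taken from the genotype and time in the labels. The authors trimmed reads with TrimGalore and cutadapt (version 1.15 in the submitters' processing notes) and a script for the diversity bases, aligned them with Bismark (0.20.0 in those notes) to GRCm38, then used SeqMonk to summarise methylation for every CpG island. What the authors deposited was this percent methylation, with no read counts. The methods of the study describe a filter for regions above a set number of reads in all libraries. Beyond that minimum the depth of each island is unknown, zeros and large steps cannot be weighed, and no counting interval is given. No island had a value in only some of the 8 libraries. The table of Hox islands held the same values.

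Percent methylation entered a limma fit (limma 3.58.1, R 4.3.3) of all 8 libraries with a mean for each group, 4 residual degrees of freedom, a variance trend and Benjamini-Hochberg adjustment over 7196 islands. Autosomal islands listed at 0 throughout numbered 264 and were not fitted. For simulated data, the 8 values of each of the 7461 islands were shuffled over the libraries. Then 200 islands drawn at random were shifted in both Smchd1 matΔ day 2 libraries. A shift of 5 points was recovered at 81.0% of the shifted islands, of 10 points at 95.0% and of 20 points at 97.5%. Of the calls, 14.7%, 12.0% and 12.9% were false, more than the 5% set by the adjusted threshold. Most islands lie near 0, so these shares do not hold for methylated islands, such as many of those named, whose standard errors are wider. Means over islands were compared by exact permutation. SDs were taken between lines. Each line came from its own blastocyst, so n is 2 lines per group.

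Islands were annotated from GENCODE on GRCm38, with features in the order coding exon, UTR, non-coding exon and intron. Lists took islands within 2 kb of a transcript start, except the Hox list, which was the deposited Hox table. The islands named were the 12 higher and 8 lower of widest gap, the 5 of smallest p, the 3 of largest difference per list, the 3 largest that overlapped, those at least 5 points apart on both days, and the Smchd1 promoter. Others were named after their values were seen. One island is not reported here. The comparison, its members and the lists were chosen with earlier results of these data known.

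Alternatives were a log2 scale with an offset of 1 point, filters at a mean of 1% or 5%, libraries scaled to the same mean, other variance moderation, the 4 day 2 libraries alone, a replicate block, cell line as a random effect, medians, a 5 kb window, other gaps, and leaving out each day 2 library. Line numbers mark the same cell line across days within a genotype. Between genotypes they are only a number, and the difference between lines 1 and 2 at day 2 correlated across islands with a Pearson r of 0.0214. Between the days, r was -0.0996 for the Smchd1 wt lines and 0.187 for the Smchd1 matΔ lines. Software was Python 3.11.15, pandas 2.3.3, numpy 2.4.6, scipy 1.17.1 and pysam 0.24.0.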

Additional observations from a re-analysis of the deposited data

Results flagged for a closer look

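Among the named islands, 4 separated the genotypes in opposite directions on the 2 days. Of all islands separated higher at day 2, 15.1% were separated lower at day 2.5, against 13.1% of all autosomal islands. Of those separated lower at day 2, 11.8% were separated higher, against 11.4% of all. The genotype difference (Smchd1 matΔ minus Smchd1 wt) at day 2.5 minus that at day 2 was 12.9 points at Slc13a5, where Smchd1 wt stood at 1.92 and 4.55% and Smchd1 matΔ at 10.7 and 5.26% at day 2.5. It was -13.0 points at Cyp26c1. It was -4.19 points at Sfrp5, which read 2.98 and 1.10% in Smchd1 wt and 1.02% in each Smchd1 matΔ line at day 2.5. It was 6.84 points at Foxd3, a pluripotency gene that read 0 and 2.38% in Smchd1 wt and 3.85 and 6.06% in Smchd1 matΔ at day 2.5. The interaction in limma gave unadjusted p values of 0.00921, 0.0403, 0.0417 and 0.0109, and the adjusted p was 0.867 for each, so none passed. The 4 islands were picked for their opposite directions, which itself makes the interaction large, so the unadjusted values are no evidence of a change between the days.

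Of the 5 islands on the X and the 2 on the Y chromosome with a value, which were no part of the autosomal comparison, the intergenic Y-linked island near Gm28781 was higher in both Smchd1 matΔ lines, by 6.82 points in the mean, with 50 and 38.9% in Smchd1 wt and 51.0 and 51.6% in Smchd1 matΔ. The gap was 0.962 points. The other Y-linked island, near Mid1-ps1, was lower in both Smchd1 matΔ lines, with a difference of means of -6.51 points, and the X-linked island of Kdm5c, a histone demethylase gene, was lower in both with a difference of -22.6 points, at 23.8 and 55.5% against 12.4 and 21.7%. The other 4 islands overlapped. None passed in limma.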

How the results depend on the processing

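No island passed under the log2 scale, either filter, scaling, other moderation, the day 2 libraries alone, cell line as a random effect or the replicate block, which left the count at 0 and the mean difference at 0.0921 points and changed no other call. Leaving out 1 day 2 library gave 88 to 95 calls (94 and 88 without Smchd1 wt lines 1 and 2, 95 without either Smchd1 matΔ line). At 81, 77, 87 and 87 of these the lone remaining library differed from 1 value shared by all others, which leaves no spread, and a lone library is assumed to vary like the other groups. Of the named islands, Ebf2 then passed whichever library was left out, Lca5l without either Smchd1 wt line, Gm11795 without Smchd1 wt line 1, Foxa2 without Smchd1 wt line 2 and Rps15a without Smchd1 matΔ line 2. Calls of the interaction then ranged from 0 to 78, with 78 without Smchd1 wt line 1, 3 without Smchd1 wt line 2 and 1 without Smchd1 matΔ line 2.

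With 1 library fewer, separated islands numbered 1552 to 2121 higher and 1473 to 2218 lower, and those 5 points apart 43 to 101 higher and 14 to 46 lower, since fewer values have to be apart. The lowest and highest came without Smchd1 wt line 1 (1552 and 2218), Smchd1 wt line 2 (43 and 46) and Smchd1 matΔ line 2 (2121, 1473, 101 and 14). Islands with a mean of at least 1% gave 212 higher and 172 lower and a mean difference of 0.573 points. The difference of library medians was 0.00414 points. Scaled libraries had 11 islands higher and 9 lower by 5 points in place of 16 and 5, and 846 separated higher and 966 lower in place of 914 and 870, so that the excess of higher islands turned or nearly went. With a gap of 10 points the sign at day 2.5 was kept at 100% of islands, but these were only 3 higher and 2 lower islands. Of all autosomal islands, 43.2% had a higher and 46.4% a lower mean at day 2.5.

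List medians were -0.108 for Hox, 0 for Wnt and for ribosomal protein genes, -0.0407 for chromatin regulators, -0.00670 for developmental transcription factors and 0.372 for imprinted genes. Axial genes within 5 kb gave 0.255 points. Without 1 library the axial difference ranged from -0.317 to 0.160, the germline one from -1.44 to 0.383 and the pluripotency one from -0.0967 to 0.215 points.

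Among named islands, the sign turned in 11, all overlapping between the genotypes. Without 1 library the difference, in points, ranged from -5.60 to 1.51 at Fzd2 (highest without Smchd1 wt line 1), from -2.77 to 0.435 at Rpl3, -2.47 to 0.163 at Smchd1, -0.947 to 0.417 at Pcdhgc3 (0.152 without Smchd1 matΔ line 2), -7.21 to 1.36 at Cdx1 and -2.17 to 0.184 at Tet3 (each highest without Smchd1 wt line 2), and from -10.8 to 3.24 at Meioc (highest without Smchd1 matΔ line 2, and 2.79 without Smchd1 wt line 1). It ranged from -3.41 to 28.7 at Zbtb7a (lowest without Smchd1 matΔ line 1), from -0.753 to 4.38 at Otx2 (lowest without Smchd1 wt line 2, and -0.481 without Smchd1 matΔ line 1), and from -2.82 to 4.81 at Smc1b and -1.71 to 4.86 at Evx1 (each lowest without Smchd1 matΔ line 2). The cause of the other changes was not tested. Depth, which the deposited percent values do not give, limits every level near 0.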
